A study of Mus musculus with 24 samples.

Results

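The microglia markers described here are 10 genes, Aif1, Cx3cr1, Tmem119, P2ry12, C1qa, C1qb, C1qc, Csf1r, Trem2 and Tyrobp, taken by symbol from a hypothalamic count table of 55471 genes. All 10 were found and all 10 passed the expression filter, which kept 18992 genes. The samples were hypothalami of chow-fed C57BL6/J male mice, 18 weeks old, which carried a gastric catheter and were infused for 23 hours a day. Overfed mice (ExpOF) received a sucrose-enriched liquid diet that reached 150% of baseline energy on day 9, and control mice received sterile water at matching flow rates. Tissue was taken on day 14 at the end of overfeeding (d14) or on day 17, after 3 further days with water infusion only (d14+3), with 6 mice in each of the 4 groups. All mice, controls included, had the surgery and the infusion, so no group stands for an undisturbed mouse.

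Microglia are the resident macrophages of the brain. They depend on signalling through CSF1R, survey the tissue with motile processes, and clear debris and synapses, partly with complement C1q as a tag. In the hypothalamus they are known to respond to diet, and the surveying state is usually marked by P2ry12, Tmem119 and Cx3cr1, while reactive states carry more Trem2, Tyrobp and Apoe. In bulk RNA, fewer microglia and less RNA per microglia cannot be told apart.

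The libraries held 8928182 to 34848437 counts. The study left out 1 Control d14 library for RNA quality, taken here as replicate 4, and the values below rest on the other 23 libraries, with 5 mice in Control d14 and 6 in each other group. RNA integrity numbers ran from 8.0 to 10.0 in Control d14 and from 9.6 to 10.0 in ExpOF d14. They ran from 7.2 to 9.9 in Control d14+3 and from 8.8 to 10.0 in ExpOF d14+3, so control mice reached lower values on both days. Every library expressed hypothalamic peptide genes, with Pmch between 196 and 471 CPM (counts scaled to the size of the library) and Hcrt between 52.9 and 187 CPM. The libraries labelled Control d14 replicate 5 and ExpOF d14+3 replicate 4 stood apart by Ttr, the transthyretin gene that choroid plexus expresses highly, at 2889 and 1204 CPM, against 1.01 to 29.9 CPM in the other libraries. Control d14 replicate 5 had the lowest RNA integrity number of its group, 8.0. It also had the highest level of 6 of the 10 markers among the 23 libraries and the lowest level of P2ry12. The results on d14 are therefore also given without it. The same comparison without ExpOF d14+3 replicate 4 left 0 markers called on d14+3.

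Levels were compared between genes as CPM per kilobase of gene length, since the counts of a gene grow with its length. The length is the one given with the counts and may not be that of a single transcript, so the order depends on it. By CPM alone Csf1r was highest, at a mean of 91.5, and C1qc was at 33.8 beside 41.0 for C1qa. Trem2, at 11.3 CPM, was then level with Tyrobp, at 11.0 CPM. C1qb and C1qa, which encode chains of the C1q recognition molecule, were highest per kb, at 42.1 ± 7.67 and 39.4 ± 7.66 CPM per kb (mean ± SD, n = 23). C1qb was above C1qa in 19 of 23 libraries, but their means differed by less than their SD. C1qc, the third chain, followed at 17.5 ± 3.02 CPM per kb. Tyrobp, the adaptor that carries the signal of TREM2, lay at 16.4 ± 2.71, and Csf1r, the receptor on which microglial survival depends, at 15.8 ± 1.23 CPM per kb. C1qc, Tyrobp and Csf1r did not separate beyond their spread, and Tyrobp was above Csf1r in only 11 of 23 libraries.

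Cx3cr1, the receptor for the neuronal chemokine fractalkine, lay lower, at 9.50 ± 0.742 CPM per kb, and was above the next gene in 21 of 23 libraries. P2ry12, a receptor for ADP that guides microglial processes to injury, and Tmem119, a membrane protein widely used to tell microglia from other macrophages, were nearly level at 7.65 ± 1.02 and 7.56 ± 0.758 CPM per kb. The lowest were Aif1, which encodes the calcium-binding protein IBA1, at 2.77 ± 0.450 and Trem2, a receptor for lipids and apolipoproteins, at 2.29 ± 0.580 CPM per kb, and these overlapped within 1 SD. Raw counts ran from 35 for Aif1 in the shallowest library to 3254 for Csf1r, so counting error weighs most on Aif1 and Trem2.

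**Figure D1:**
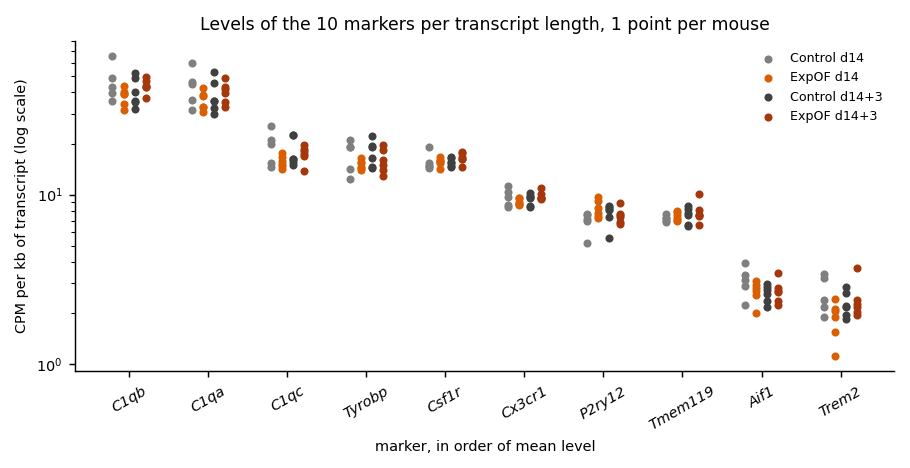
Level of each marker in CPM per kb of gene length (log axis), with markers ordered by their mean, 1 point per mouse and colours for the 4 groups. The 3 C1q chains, Tyrobp and Csf1r sit above Cx3cr1, and Aif1 and Trem2 sit lowest at means of 2.77 and 2.29 CPM per kb.

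The markers also differed in how steady they were from mouse to mouse. Cx3cr1 and Csf1r varied least, with a highest library 1.32 and 1.35 times the lowest, while Trem2 varied most, with a ratio of 3.32 between its highest and lowest library. The ratio was between 1.83 (C1qc) and 2.08 (C1qb) for the C1q chains and 1.85 for P2ry12. Within groups, the SD of log2 CPM was 0.34 for Trem2, 0.23 to 0.27 for the C1q chains and 0.11 for both Cx3cr1 and Csf1r.

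The sequences before the transcription start are shown for Trem2, C1qb and P2ry12, because these markers had the smallest p-values on d14 in each direction or, for C1qb, stand for the C1q genes that moved together. They are the 250 bases upstream of the start, 5′ to 3′ on the strand of the gene, from RefSeq on GRCm38.p6, which had an entry for 6 of the 10 markers. Capitals mark GAGGAAG or its reverse complement, letters found at binding sites of PU.1, the transcription factor that myeloid cells require.
Trem2 (chr17:48346151-48346400, + strand): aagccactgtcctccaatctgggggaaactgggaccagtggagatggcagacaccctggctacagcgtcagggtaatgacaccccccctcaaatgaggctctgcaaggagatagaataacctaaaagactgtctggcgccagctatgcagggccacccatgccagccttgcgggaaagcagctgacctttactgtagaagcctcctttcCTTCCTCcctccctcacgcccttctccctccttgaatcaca
C1qb (chr4:136886201-136886450, - strand): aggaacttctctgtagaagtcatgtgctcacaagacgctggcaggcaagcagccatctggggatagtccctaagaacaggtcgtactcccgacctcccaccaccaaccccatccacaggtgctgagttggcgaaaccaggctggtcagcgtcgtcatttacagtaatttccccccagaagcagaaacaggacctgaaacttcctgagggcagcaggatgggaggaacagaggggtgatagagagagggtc
P2ry12 (chr3:59262986-59263235, - strand): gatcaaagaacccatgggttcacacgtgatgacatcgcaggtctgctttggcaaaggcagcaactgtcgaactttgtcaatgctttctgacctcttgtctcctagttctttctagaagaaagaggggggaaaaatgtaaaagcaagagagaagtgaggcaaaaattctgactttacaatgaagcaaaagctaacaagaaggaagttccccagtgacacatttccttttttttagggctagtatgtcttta
The letters occurred once before Trem2, 41 bases upstream of the start, and not in the windows of C1qb or P2ry12. Among the 6 markers with an entry, 2 held them, Trem2 and C1qc, against 10.6% of all 32851 windows of this length. The C1qc window overlaps the annotated C1qc gene and is not printed.

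The C1qa, C1qb and C1qc genes lie together within 18.7 kb (chr4:136880129-136898803, mm10, minus strand), and none of them overlaps another annotated gene. Trem2 (chr17:48346401-48352273) and Aif1 (chr17:35170991-35176001) are also free of overlap. P2ry12 (chr3:59216272-59262831) lies inside Med12l, which is read from the opposite strand, and the extent of Cx3cr1 (chr9:119901616-120069879) takes in 9 other genes, of which 6 run in the other direction. The library kit kept strand, but whether counting used it is not given in the sources used here, so reads shared with those neighbours cannot be told apart for P2ry12 and Cx3cr1.

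The comparison on d14 asked whether microglial transcripts differed at the end of overfeeding. No marker was called at an adjusted p under 0.05, where 0.00527% of all genes were. Of the 10 markers, 8 were lower and 2 higher in ExpOF mice, with a median log2 fold change of -0.21, against -0.02 over all genes tested. At an unadjusted p under 0.05, 3 markers were lower (Trem2, C1qb and C1qc), beside 13.6% of all genes, and 1 was higher (P2ry12), beside 13.1%. DESeq2 also called 0 of the markers, beside 166 of 18976 genes, and put 4 at an unadjusted p under 0.05, beside 5226 genes. Without Control d14 replicate 5 the number of markers at an unadjusted p under 0.05 went from 4 to 0, 7 were lower, and the median log2 fold change was -0.12, while the share of all genes at that p went from 26.7% to 15.1%. The number was 1 without Control d14 replicate 2, where the share of all genes also fell, to 14.4%, and 7 without Control d14 replicate 3, where it was 29.5%. It was 1 without ExpOF d14 replicate 5 (21.7% of all genes) and 2 without ExpOF d14 replicate 1, 2 or 6 (25.3%, 23.2% and 21.2%). It was 5 without Control d14 replicate 1 (7376 of 19206 genes) and also without ExpOF d14 replicate 3 (3933 of 18848 genes). It was 4 without Control d14 replicate 6 (3488 of 19110 genes) and 3 without ExpOF d14 replicate 4 (5067 of 18877 genes).

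Trem2 had the largest difference. Its level was 9.42, 10.8, 11.9, 16.0 and 16.8 CPM in the 5 Control d14 mice, and in the 6 ExpOF d14 mice it ran from 5.52 through a median of 9.82 to 11.9 CPM. The groups overlapped, with 2 of 6 ExpOF mice below every control mouse. The mean log2 fold change was -0.46 ± 0.18 (SE; 95% interval -0.84 to -0.09), with an adjusted p of 0.142 and a two-sided exact permutation p of 0.0649, where the smallest p that 6 against 5 mice allow is 0.00433. Without Control d14 replicate 1 the same test gave -0.55 and an adjusted p of 0.0377, but 22.0% of all genes were then called. Without Control d14 replicate 5 it gave -0.35 and an adjusted p of 0.341. Tyrobp, the signalling partner of TREM2, was 8.29, 9.51, 12.8, 12.8 and 14.0 CPM in control mice and 9.35 to 11.0 CPM in ExpOF mice. All 6 ExpOF values of Tyrobp lay within the control range, with a log2 fold change of -0.19 ± 0.13 at an adjusted p of 0.334, and of -0.11 ± 0.14 without replicate 5.

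The C1q chains gave nearly equal estimates. C1qb was 38.9, 43.0, 46.7, 52.7 and 71.6 CPM in the control mice and ran from 34.4 through a median of 42.7 to 47.3 CPM in ExpOF mice. The log2 fold change of C1qb was -0.29 ± 0.14 (95% interval -0.56 to -0.0053, adjusted p = 0.182, exact permutation p = 0.134). C1qc gave -0.28 ± 0.13 (adjusted p = 0.170, exact permutation p = 0.108) and C1qa -0.28 ± 0.15 (adjusted p = 0.230, exact permutation p = 0.165). The control group held the widest spread, with an SD of 12.8 CPM for C1qb against 4.67 CPM in ExpOF mice, and its highest value was replicate 5 for all 3 chains. Without that library the log2 fold changes were -0.14 for C1qa, -0.13 for C1qb and -0.17 for C1qc.

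P2ry12 went the other way. It was 13.3, 17.8, 18.4, 19.3 and 19.6 CPM in the control mice and ran from 18.6 through a median of 20.5 to 24.6 CPM in ExpOF mice. Here 4 of 6 ExpOF mice lay above every control mouse, and the lowest control value, replicate 5, stood alone. ExpOF mice differed by a log2 fold change of 0.25 ± 0.11 (95% interval 0.02 to 0.48), with an adjusted p of 0.159 and an exact permutation p of 0.0433. Without replicate 5 it was 0.16 with an adjusted p of 0.401, and 0 markers had an exact permutation p under 0.05 on d14.

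The other surveying-state genes were closer between the groups. Tmem119 was 16.7 ± 0.713 CPM (SD, n = 5) in control and 17.3 ± 0.948 CPM (SD, n = 6) in ExpOF mice, a log2 fold change of 0.05 ± 0.09 (adjusted p = 0.731), or 0.07 ± 0.09 without Control d14 replicate 5. Cx3cr1 was 43.7 ± 5.10 and 40.9 ± 1.73 CPM, a log2 fold change of -0.09 ± 0.07 (adjusted p = 0.371), or -0.03 ± 0.07 without that library. Csf1r had the smallest difference, at 90.4 ± 11.2 and 90.2 ± 4.99 CPM and a log2 fold change of -0.0021 with a 95% interval from -0.14 to 0.14. The sign of Csf1r turned under several settings of the analysis, and the estimate was 0.08 ± 0.06 without replicate 5. Aif1, the gene behind the usual microglial stain, was 4.78 ± 0.948 and 4.12 ± 0.586 CPM, a log2 fold change of -0.22 ± 0.14 (adjusted p = 0.298), or -0.12 ± 0.14 without replicate 5. Not 1 of the 10 markers had groups free of overlap on d14, beside 2.50% of all genes.

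**Figure D2:**
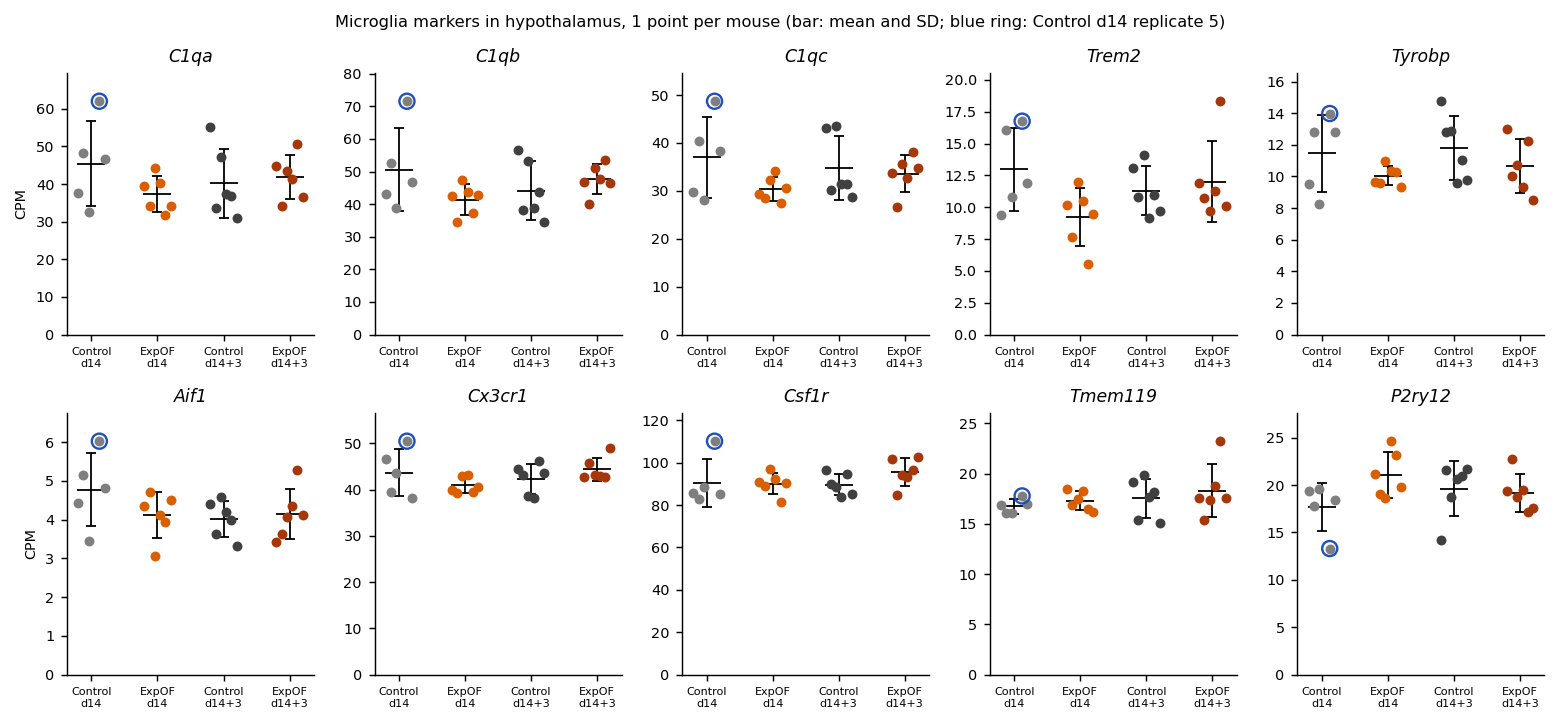
CPM of each marker in every mouse by group, with the mean and SD as bars and Control d14 replicate 5 ringed in blue. The ringed library is at the top of Control d14 in 9 markers and at the bottom in P2ry12, and the groups overlap in every panel.

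Some of these estimates moved with gene length. The markers with the shortest gene lengths were Tyrobp (667 bases), C1qa (1040 bases), C1qb (1088 bases) and Aif1 (1532 bases). When the trend of each library with gene length was removed, an alternative chosen after the data were seen, the log2 fold change on d14 became -0.04 for Tyrobp, -0.11 for C1qa, -0.12 for C1qb and -0.08 for Aif1. It was -0.48 for Trem2 (4946 bases) and was 0.32 for P2ry12 (2546 bases). These values depend on the length given with the counts, which may not be that of a single transcript. The median over the markers was then -0.08, and 2 markers instead of 4 had an unadjusted p under 0.05. Over all 18992 genes this number also fell, from 5069 to 3727.

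**Figure D3:**
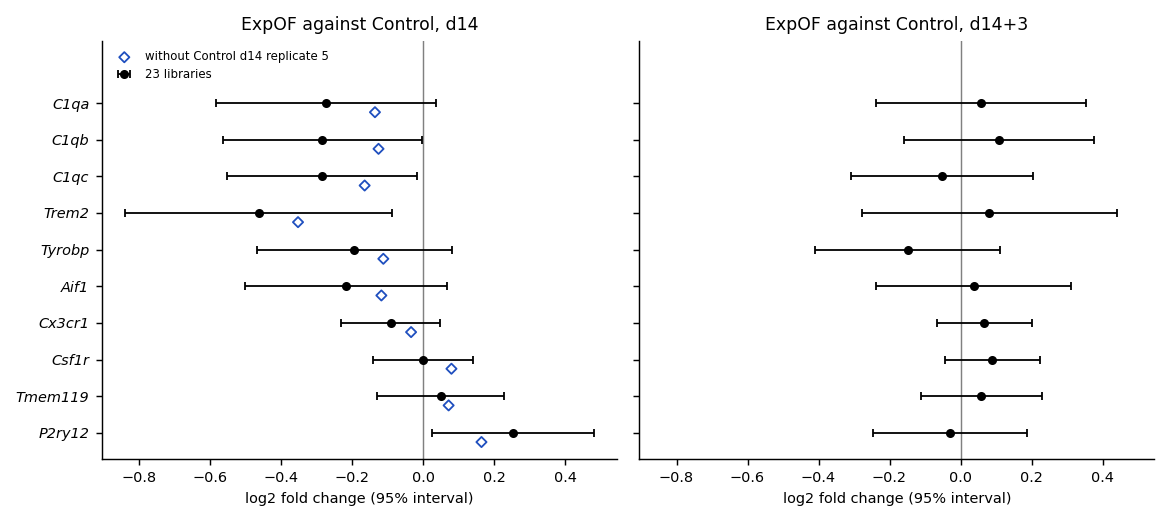
Log2 fold change of each marker, ExpOF against Control, on d14 and d14+3, with 95% intervals as bars and, on d14, blue diamonds for the estimate without Control d14 replicate 5. On d14 the intervals of Trem2, C1qb, C1qc and P2ry12 exclude 0 before adjustment, and on d14+3 all 10 intervals include 0.

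On d14+3, 3 days after the end of overfeeding, no marker was called, as 0% of all genes were, and none had an unadjusted p under 0.05, beside 7.11% of all genes. DESeq2 likewise called 0 markers, beside 55 of 18976 genes, and put 0 at an unadjusted p under 0.05, beside 1419 genes. Of the markers, 7 were higher and 3 lower in ExpOF mice, with a median log2 fold change of 0.06 against 0.0070 over all genes. The estimates ran from -0.15 ± 0.13 for Tyrobp to 0.11 ± 0.13 for C1qb. All 10 markers overlapped between the groups, beside 0.421% of genes that did not.

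Trem2 was 9.19, 10.9 and 14.1 CPM at the lowest, median and highest of the 6 Control d14+3 mice and 9.74, 11.0 and 18.3 CPM in the ExpOF d14+3 mice. The value of 18.3 CPM, in ExpOF d14+3 replicate 5, stood apart, and the log2 fold change was 0.08 ± 0.17 with it and -0.07 without it. That library had the lowest RNA integrity number of its group, 8.8. P2ry12 was 14.2, 20.8 and 21.7 CPM in control mice and 17.2, 19.1 and 22.7 CPM in ExpOF mice, so that the medians lay within the spread of either group. C1qb was 34.6, 41.2 and 56.7 CPM in control mice and 40.2, 47.3 and 53.6 CPM in ExpOF mice. Csf1r had an interval from -0.04 to 0.22 on the log2 scale, and 3 of 6 ExpOF mice lay above every control mouse. The 95% interval ran from -0.28 to 0.44 for Trem2 and from -0.16 to 0.38 for C1qb.

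The comparisons across days asked whether marker levels moved with recovery. In control mice 0 markers were called between d14 and d14+3, while 1.15% of all genes were, and 0 markers had an unadjusted p under 0.05, beside 12.7% of all genes. In ExpOF mice 0 markers were called, as 0% of all genes were, 0 had an unadjusted p under 0.05, beside 7.79%, and 9 of the 10 were higher on d14+3, with a median log2 fold change of 0.10 against 0.0037 over all genes. Trem2 gave the largest of these, 0.35 ± 0.18 (adjusted p = 0.670), and P2ry12 was the marker that was lower, at -0.13 ± 0.11 (adjusted p = 0.848). DESeq2 called 0 markers in both comparisons, beside 531 (control mice) and 202 (ExpOF mice) of 18976 genes. It put 0 (control mice) and 1 (ExpOF mice) at an unadjusted p under 0.05, beside 2497 and 1516 genes.

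A test of whether the effect of overfeeding differed between the days called 0 markers, as 0% of all genes were called. At an unadjusted p under 0.05 it had Trem2 (difference of log2 fold changes 0.55 ± 0.25, adjusted p = 0.903) and C1qb (0.39 ± 0.19, adjusted p = 0.903), beside 4.42% of all genes. DESeq2 called 0 markers, beside 0 of 18976 genes, and put 2 at an unadjusted p under 0.05, beside 860 genes. Both estimates were negative on d14 and slightly positive on d14+3, and the Control d14 mice enter both this test and the one on d14. Without Control d14 replicate 5 the differences were 0.43 ± 0.25 for Trem2 and 0.23 ± 0.16 for C1qb, and 0 markers had an unadjusted p under 0.05, beside 3.09% of all genes. The count was also 0 without Control d14+3 replicate 2, 4, 5 or 6, without ExpOF d14 replicate 2 or 5, or without ExpOF d14+3 replicate 5. These fits had from 599 of 18837 genes (without Control d14+3 replicate 2) to 908 of 18952 (without Control d14+3 replicate 5) at that p. The count was 4 without Control d14+3 replicate 1, beside 1127 of 18835 genes. It was from 1 to 3 without any other library. Those fits had from 703 of 19228 genes (without Control d14 replicate 2) to 1890 of 19206 (without Control d14 replicate 1) at that p.

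The mice had died in July or in September of the same year, and each group was drawn from both months. Of the markers, 9 were higher and 1, P2ry12, was lower in September within groups, with a median log2 difference of 0.10, and 0 were called, as 0% of all genes were. The largest were Trem2 at 0.20 ± 0.12 and C1qa at 0.20 ± 0.10 (both adjusted p = 1.00). None had an unadjusted p under 0.05 in edgeR, beside 3.88% of all genes, and 1 had in DESeq2, beside 763 of 18985 genes. On d14, Trem2 averaged 7.79 CPM in ExpOF and 12.9 CPM in control mice of July, and 10.6 and 13.1 CPM in those of September, where the control group held 2 mice, replicates 1 and 5. C1qb was 38.2 against 46.1 CPM in July and 44.7 against 57.3 CPM in September, and P2ry12 21.1 against 18.6 CPM and 21.0 against 16.3 CPM. With 0 markers called in either month, these 3 genes had the same direction in both months, but the September means of control mice rest on replicate 5. In replicate 1, the September control that remains without it, Trem2 was 9.42 CPM and C1qb 43.0 CPM, both below the ExpOF means, so that the direction of these 2 genes turned. P2ry12, at 19.3 CPM there, was still below ExpOF. On d14+3 Trem2 was 10.2 against 11.6 CPM in July and 13.8 against 11.0 CPM in September, opposite in sign. RNA integrity had 0 called markers and 0 at an unadjusted p under 0.05, beside 0% and 6.42% of all genes, and slopes from -0.06 (Cx3cr1) to 0.04 (Tyrobp) in log2 CPM per unit. When Control d14 replicate 5 was left out, 1 marker had an unadjusted p under 0.05, beside 20.1% of all genes.

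Within groups the markers did not vary as 1 block. Correlations were taken over the 23 libraries on log2 CPM less the group mean, as a description with no test, since all markers share the depth and scaling of each library. C1qa, C1qb and C1qc followed each other closely, with Pearson's r of 0.92 to 0.93. Trem2 and Tyrobp went with them (r of 0.69 to 0.80 with the C1q chains), and the 15 pairs among the C1q chains, Trem2, Tyrobp and Aif1 had a median r of 0.70. Tmem119 (r of 0.63 to 0.70) and Csf1r (r of 0.58 to 0.67) also went with the C1q chains, beside 0.55 to 0.63 for Aif1. P2ry12 had a negative Pearson's r with all 9 other markers, from -0.75 (C1qb) to -0.23 (Cx3cr1). With Cx3cr1 its Spearman correlation was 0.02, so the negative sign did not hold by rank for that pair. Cx3cr1 went with Csf1r (r = 0.62) and hardly with the C1q chains (r of 0.01 to 0.21).

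Control d14 replicate 5 was also left out, but only after the group means had been taken with it. The other Control d14 values thus keep an offset set by that library. These values therefore cannot show whether the pattern holds without it. The C1q chains then had r of 0.90 to 0.92, and P2ry12 had r of -0.68 with C1qb and -0.67 with C1qc. Cx3cr1 with P2ry12 came to -0.02, and Cx3cr1 with C1qa to -0.23. The Spearman correlation of P2ry12 with C1qb was -0.68 and that of C1qa with C1qb 0.91.

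**Figure D4:**
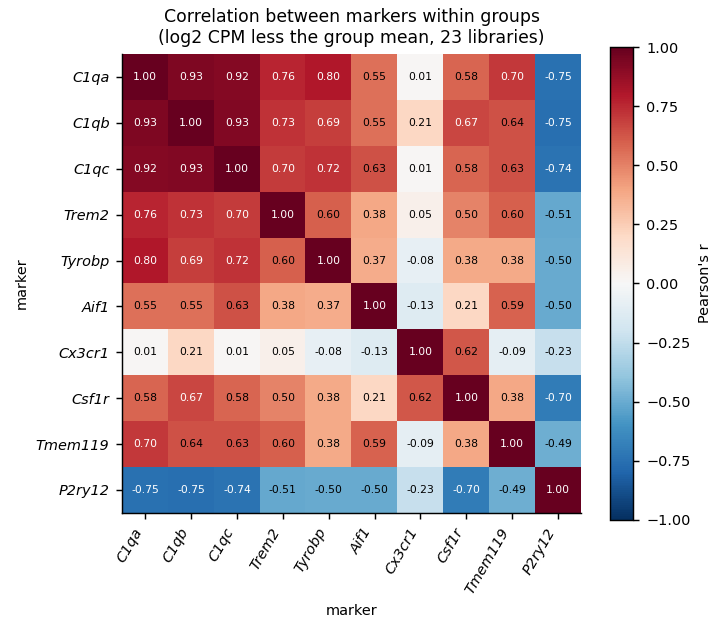
Pearson's r between markers within groups over 23 libraries, red for positive and blue for negative, with the value printed in each cell. The C1q chains form the reddest corner (0.92 to 0.93), and the P2ry12 row is blue throughout (-0.75 to -0.23).

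The genes most like the mean of the markers within groups were sought among 14173 genes with a mean of at least 50 counts. The 10 nearest outside the list were Fes (r = 0.89), Grn (r = 0.88), Alas1, Ctsz, Slc39a1, Shisa5, Vamp8, Tmem234, Ostf1 and Tinagl1 (r = 0.86). Grn encodes progranulin, a lysosomal growth factor that microglia make in quantity, Ctsz a lysosomal protease, and Fes a kinase of myeloid cells. Among the markers themselves, whose own values enter the mean, C1qb had the highest r at 0.94 and P2ry12 the lowest at -0.70. On d14 the log2 fold changes of these 10 genes ran from -0.52 (Vamp8) to -0.09 (Alas1), and the adjusted p of Ctsz, the smallest with that of Vamp8, was 0.135. Leaving out Control d14 replicate 5 gave -0.33 for Vamp8, -0.05 for Alas1 and -0.22 for Ctsz, whose adjusted p was then 0.326.

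Ratios between markers within a library do not depend on its scaling. They are given as a description, since they were chosen with the values known. For 8 ratios, 16 exact permutation tests of ExpOF against Control were run, with a lowest adjusted p of 0.0693. The 2 group differences given below, C1qc to C1qb on d14+3 and P2ry12 to Trem2 on d14, had the smallest p-values of these. The ratio of C1qa to C1qb, per kb, was steady at 0.937 ± 0.0609 (SD, n = 23), and that of C1qc to C1qb was 0.418 ± 0.0306. On d14+3 the C1qc to C1qb ratio was 0.405 to 0.468 in control mice and 0.373 to 0.421 in ExpOF mice, with means of 0.444 and 0.396, whereas on d14 both groups had a mean near 0.41 (0.414 and 0.415). The ratio of P2ry12 to Trem2 was 1.54, 2.15, 3.02, 3.53 and 3.99 in the Control d14 mice and ran from 3.02 to 8.17 in ExpOF d14 mice, with 5 of 6 ExpOF mice above every control mouse. The lowest control value was replicate 5, and the control mean was 2.85 with it and 3.17 without it. The value of 8.17 came from ExpOF d14 replicate 5, the library with the fewest counts, where Trem2 had 49 counts. On d14+3 this ratio was 2.10 to 4.37 in control and 1.82 to 4.11 in ExpOF mice, so the ranges nearly coincided.

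**Figure D5:**
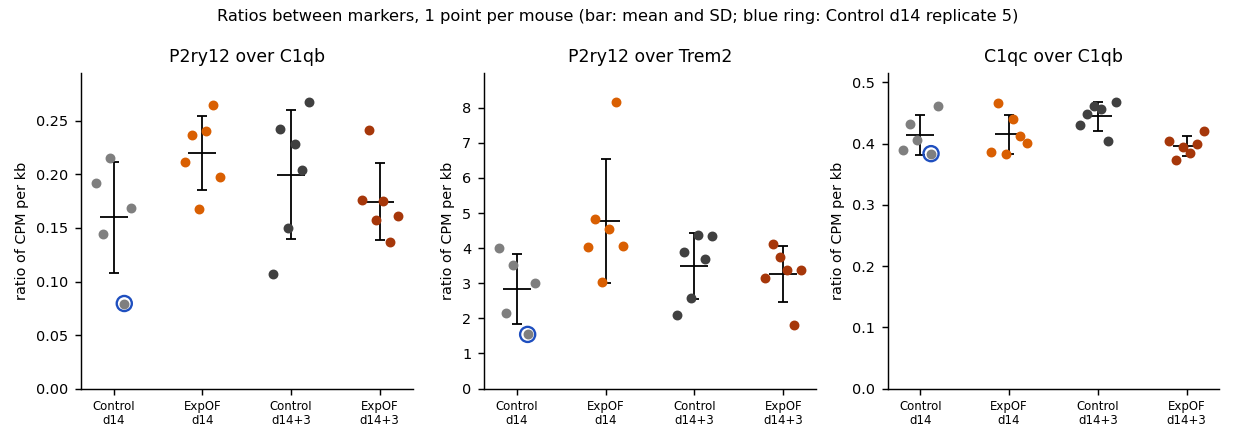
Ratio of CPM per kb between markers in every mouse, with the mean and SD as bars and Control d14 replicate 5 ringed in blue. The P2ry12 to Trem2 ratio averages 2.85 in Control d14 and 4.78 in ExpOF d14, and the C1qc to C1qb ratio averages 0.444 in Control d14+3 and 0.396 in ExpOF d14+3.

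Genes that work with the markers were read from lists chosen with earlier results of these data known, and 0 genes of these lists were called on either day. Beside the counts of these lists, 13.6% of all genes were lower and 13.1% higher at an unadjusted p under 0.05 on d14, and 53.4% were lower at any p. Without Control d14 replicate 5 the shares were 8.38% and 6.70%, and 53.2% were lower at any p. On d14+3 they were 4.20% and 2.91%, and 47.9% were lower at any p.

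Among other homeostatic microglia genes, 3 of 16 had an unadjusted p under 0.05 on d14 as higher and 1 as lower, with a median log2 fold change of 0.0097, which became 1 higher, 0 lower and 0.09 without Control d14 replicate 5. The most abundant of them, Sparc and Cst3, are also made by other brain cells and gave -0.07 ± 0.05 and -0.30 ± 0.15. Of 19 disease-associated microglia genes tested, 17 were lower on d14 and 6 of these had an unadjusted p under 0.05, with a median of -0.24. Apoe, the lipid carrier that astrocytes also secrete, gave -0.41 ± 0.15 and Fth1, the ferritin heavy chain, -0.39 ± 0.14 (both adjusted p = 0.139). Without that library 17 were still lower, 4 of them at an unadjusted p under 0.05, with a median of -0.17, Apoe at -0.39 ± 0.16 and Fth1 at -0.31 ± 0.15. On d14+3, 15 of the 19 were lower, 1 of them with an unadjusted p under 0.05, and the median was -0.12. Of the 16 homeostatic genes, 2 were higher and 0 lower at that p on d14+3, with a median of 0.07.

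The ligands and signalling partners of CSF1R, TREM2 and the fractalkine receptor showed 1 of 14 genes with an unadjusted p under 0.05 on d14. This was Adam10, a protease that sheds fractalkine and TREM2, at 0.31 ± 0.12 (adjusted p = 0.139), while Cx3cl1, which encodes fractalkine, gave -0.04 ± 0.08 (adjusted p = 0.803), and these were 0.26 ± 0.12 and 0.04 ± 0.08 without Control d14 replicate 5. On d14+3, 0 genes of this list had an unadjusted p under 0.05, and the median was 0.01. Among 14 complement partners of C1q, 11 were lower on d14 with a median of -0.18, and 1 lower and 1 higher had an unadjusted p under 0.05. The most abundant, C4b, which the proteases bound to C1q cleave, and Cr1l, a complement regulator, were among the 3 that were higher, at 0.21 ± 0.12 and 0.22 ± 0.07 (adjusted p = 0.260 and 0.135). When replicate 5 was left out 9 of the 14 were lower, with a median of -0.05 and 0 lower and 1 higher at an unadjusted p under 0.05. On d14+3, 10 of the 14 were higher, with a median of 0.08.

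Of 8 purinergic genes of microglia, 5 were lower on d14, with a median of -0.10, and 1 higher and 1 lower had an unadjusted p under 0.05. P2rx4, an ATP-gated channel, gave -0.22 ± 0.10 (adjusted p = 0.167) and Kcnk13, the potassium channel of resting microglia, -0.08 ± 0.10. Myeloid transcription factors were split 5 to 5 on d14, with 1 higher and 1 lower at an unadjusted p under 0.05. Mef2c, a gene that neurons also express, gave 0.29 ± 0.11 (adjusted p = 0.138) and Bhlhe41 -0.07 ± 0.07. On d14+3, 0 of them were higher and 1 was lower at that p, and Bhlhe41 gave -0.22 ± 0.07 (adjusted p = 0.443). Of 16 phagocyte and lysosome genes, 0 had an unadjusted p under 0.05 on either day, and Ctss and Itgb5 gave -0.09 ± 0.08 and -0.16 ± 0.09 on d14. Among 11 cytokine and NF-kB genes tested, 1 was lower with an unadjusted p under 0.05 on d14 and 1 higher on d14+3, with medians of 0.01 and 0.02, and Ikbkb and Nfkb1 gave 0.09 ± 0.06 each on d14. Of 13 MHC and interferon genes, 10 were lower on d14 with a median of -0.18, 0 of them with an unadjusted p under 0.05, and H2-D1 and H2-K1 gave -0.19 ± 0.12 and -0.26 ± 0.17. The medians on d14 without Control d14 replicate 5 were -0.05 for the purinergic genes, 0.11 for the transcription factors, -0.03 for the phagocyte and lysosome genes, -0.05 for the cytokine and NF-kB genes and -0.13 for the MHC and interferon genes.

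Markers of the other cells that hypothalamic tissue can hold are given beside these results, and their part in them was not tested. Macrophages of vessels and brain borders, which share Csf1r, Aif1, Tyrobp and C1q with microglia, had a summed level of 21.2 to 34.2 CPM in Control d14 and 20.3 to 35.4 CPM in ExpOF d14. Of these 10 genes, 8 were lower on d14, with a median of -0.09, Stab1 at -0.0050 ± 0.14 and Mrc1 at -0.44 ± 0.39, and 0 had an unadjusted p under 0.05. Blood leukocyte genes summed to 3.41 to 17.3 CPM in Control d14, highest in replicate 5, and to 2.33 to 10.5 CPM in ExpOF d14. All 6 that were tested were lower on d14, with a median of -0.68 and none at an unadjusted p under 0.05, S100a9 at -1.22 ± 0.65 and Trbc2 at -0.32 ± 0.25, and Ly6g had no count in most of the 23 libraries. Without replicate 5, 5 of the 6 were lower, with a median of -0.40 and S100a9 at -0.83 ± 0.68. Red blood cell genes summed to 105 to 132 CPM in Control d14 and 57.0 to 287 CPM in ExpOF d14, with Hbb-bs at 0.09 ± 0.36 and Hba-a1 at 0.02 ± 0.40.

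Choroid plexus and leptomeningeal genes summed to 79.4 to 122 CPM in 4 of the 5 Control d14 libraries and to 3085 CPM in replicate 5, against 74.8 to 100 CPM in ExpOF d14. All 10 were lower on d14, 5 of them at an unadjusted p under 0.05, with Ttr at -8.10 ± 2.30 and Clic6 at -0.26 ± 0.16. Without replicate 5, 9 were lower and 2 of them had an unadjusted p under 0.05, and Ttr came to -0.88 ± 1.82 and Clic6 to 0.00034 ± 0.12. Neuronal genes summed to 4928 to 5690 CPM in Control d14 and 5635 to 5984 CPM in ExpOF d14, and 4 of 10 were higher at an unadjusted p under 0.05, with Snap25 at 0.06 ± 0.05 and Map2 at 0.37 ± 0.15. Astrocyte and tanycyte genes had 4 of 10 higher and 6 lower, 2 of each at an unadjusted p under 0.05, with Slc1a2 at 0.21 ± 0.09 and Slc1a3 at 0.16 ± 0.06. Oligodendrocyte lineage genes had 6 of 10 lower, 3 of them at an unadjusted p under 0.05, with Mbp at -0.22 ± 0.10. Endothelial and pericyte genes had 5 of 10 lower, 4 of them at an unadjusted p under 0.05, with Rgs5 at 0.0026 ± 0.06 and Flt1 at 0.05 ± 0.09. The numbers at an unadjusted p under 0.05 without Control d14 replicate 5 were 1 of the neuronal genes, 0 of the astrocyte and of the oligodendrocyte genes and 3 of the endothelial genes. On d14+3 the same cell lists had from 0 to 2 genes at an unadjusted p under 0.05 each.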

How the data were processed

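Per the labels and the study's methods, RNA of hypothalami from 24 mice was made into poly-A selected, stranded libraries, and the authors aligned the reads with STAR to mm10 and counted them per gene with featureCounts 1.6.4. What the authors deposited are read counts for each gene, without normalization, beside gene lengths in bases, and whether the counting used strand is not given in the sources used here. Symbols came from GENCODE vM21, and 55144 of 55471 genes received 1. From these counts, edgeR 4.0.16 in R 4.3.3 scaled libraries by TMM factors, kept genes with filterByExpr (minimum count 10, total 15), fitted the 4 groups together and gave a robust quasi-likelihood F-test per gene. Benjamini-Hochberg adjustment ran over the 18992 genes tested, and genes at an adjusted p under 0.05 are named called. CPM used TMM factors, and log2 CPM a prior count of 2. Intervals are at 95%. The left-out library is not named in the study's text, and was taken as Control d14 replicate 4 from an earlier analysis of these data. This was then checked: of all libraries, leaving out this one alone gave the mean level per gene in the study's results. One gene picked by the naming rule is not reported here. Single markers were also compared with two-sided exact permutation tests in scipy 1.17.1, with raw p-values.

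The markers and gene lists were chosen with earlier results of these data known. All markers are named, and of each list the 2 genes with the highest mean CPM and any gene called, and the 10 genes nearest to the mean of the markers. The fits were tested on simulated data, where DESeq2 1.42.0 called a larger share of unchanged genes than its threshold aims at. No libraries of a group agreed within sampling noise over 60 pairs. Replicates are separate mice. The depth is given with the results, and counting error limits Aif1 and Trem2 most. Alternatives were DESeq2, its size factors, 2 other filters, all 24 libraries, the 2 groups alone, covariates, each month alone, a replicate block, removal of length trends and leaving out each library.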

Additional observations from a re-analysis of the deposited data

Results flagged for a closer look

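In the Control d14 library that the study removed for RNA quality (taken as replicate 4, with an RNA integrity number of 9.8 in its label and 10922271 counts), 7 of the 10 markers lay above every other Control d14 library. On the scaling of all 24 libraries Aif1 was at 22.2 CPM (others 3.41 to 6.03), Cx3cr1 at 65.2 CPM (37.6 to 50.5), C1qa at 95.2 CPM (32.3 to 62.0), C1qb at 99.6 CPM (38.5 to 71.6), C1qc at 52.2 CPM (27.7 to 48.7), Trem2 at 29.0 CPM (9.38 to 16.8) and Tyrobp at 20.9 CPM (8.20 to 14.0). Aif1 was 4.69 times and Trem2 2.25 times the mean of the other Control d14 libraries. P2ry12, at 9.52 CPM, and Csf1r, at 75.3 CPM, lay below all 23 other libraries, and Tmem119, at 17.6 CPM, lay among them. The ratio of C1qc to C1qb per kb was 0.295 in this library, below the range of 0.373 to 0.468 in the others. The same library had 4574 CPM of choroid plexus and leptomeningeal genes, 696 CPM of red blood cell genes and 28.8 CPM of blood leukocyte genes. Neuronal genes summed to 3420 CPM in it and astrocyte and tanycyte genes to 2166 CPM, where the lowest other libraries had 4928 and 2446 CPM. Disease-associated microglia genes summed to 13878 CPM, where the highest other library had 5810 CPM. The part of these genes in the marker levels was not tested.

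Among 40 sets of 1 marker in 1 group, 4 held a library that stood apart from the rest of its group, where chance flags about 1 in 20. P2ry12 was at 13.3 CPM in Control d14 replicate 5, against 17.8 to 19.6 CPM in the other 4. P2ry12 was at 14.2 CPM in Control d14+3 replicate 1, against 18.7 to 21.7 CPM. Csf1r was at 110.2 CPM in Control d14 replicate 5, against 82.6 to 88.5 CPM. Trem2 was at 18.3 CPM in ExpOF d14+3 replicate 5, against 9.74 to 11.9 CPM.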

How the results depend on the processing

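Called markers stayed at 0 in each of the 7 comparisons under each alternative run, except on d14 without Control d14 replicate 1. Leaving out each library in turn gave 0 to 1 called markers on d14, and 0 to 4 (d14) and 0 to 1 (d14+3) markers with an exact permutation p under 0.05, against 1 and 0 with all 23. With all 24 libraries the latter count on d14 was 2, and the median log2 fold change of the markers on d14 was -0.36 instead of -0.21. Estimates near 0 turned their sign. For Csf1r on d14 the log2 fold change was 0.0061 with DESeq2, 0.0052 with its size factors, 0.045 with all 24 libraries, 0.019 with RIN as covariate and 0.033 in July mice. For Tmem119 on d14 it was -0.0021 in September mice. On d14+3, July mice alone gave -0.017 for Aif1, -0.080 for Tmem119, -0.012 for C1qa and -0.19 for Trem2, and removal of length trends gave 0.0045 for P2ry12. The causes were not tested.

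Leaving out each library gave log2 fold changes from -0.038 to 0.079 for Csf1r on d14 and, on d14+3, from -0.039 to 0.088 for Aif1, -0.0059 to 0.17 for C1qa, -0.10 to 0.023 for C1qc, -0.11 to 0.0021 for P2ry12, -0.017 to 0.11 for Tmem119 and -0.071 to 0.16 for Trem2. Of 343 counts and medians recomputed, 329 moved by less than the spread between libraries or stayed within 1.5 times the count. That spread, 0.135 in log2 CPM, is wide beside the medians, so a d14 median of -0.083 instead of -0.21 counted as unmoved. Even so, 3 of 128 medians turned their sign. On d14+3 the median of 0.06 became -0.033 in July mice alone and -0.0093 without ExpOF d14+3 replicate 5, and between the days of control mice -0.07 became 0.021 without Control d14 replicate 5.

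The replicate numbers in the labels did not pair the mice, with correlations of their deviations from -0.15 to -0.02 on d14 and from -0.21 to 0.22 on d14+3. With the replicate block 0 markers were called on either day. On d14, 1 marker instead of 4 had an unadjusted p under 0.05, beside 3968 instead of 5069 of 18992 genes. The median log2 fold change on d14 was -0.18, and Csf1r came to 0.0097. The comparison of 2 groups alone was not run for the interaction. Precision is limited by the spread between mice, with a 95% interval on d14 of -0.84 to -0.09 for Trem2, and for Aif1 also by counts down to 35.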
